A study of Mus musculus with 33 samples.

Results

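Resident memory T cells (TRM) sorted from allergic mouse skin under the header code 5 were compared, over all genes, with TRM from skin treated with acetone at day 0. The comparison held 5 of the 33 libraries of the series, 2 of code 5 and 3 of day 0 acetone, chosen by the codes in the header of the first experiment's count table and by no measured value. All were live CD45+CD8+CD69+CD103+ T cells from the skin of Nur77GFP mice allergic to 2,4-dinitrofluorobenzene (DNFB), a hapten that causes allergic contact dermatitis when it is painted on skin, and all were sorted as GFP-negative. The mice received acetone or TA at 0.01%, the topical glucocorticosteroid of the series, and cells were taken at day 0 (just before DNFB was applied again), at day 1 (24 hours after) or at day 6 (144 hours after). Code 1 is day 0 acetone, the only set with 3 library letters. Code 5 is 1 of 3 sets, day 0 TA, day 6 acetone or day 6 TA. The header does not tell which, so no difference below can be ascribed to TA or to time. Codes 2 and 6 are the other sets of those 3, and codes 3 and 4 are the day 1 sets, 1 with acetone and 1 with TA.

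TRM are CD8 T cells that stay in a tissue after an immune response and do not recirculate. In skin they lie among the keratinocytes of the epidermis, held there in part by CD103, the integrin alpha chain encoded by Itgae, and by CD69, which blocks exit. When the allergen returns they can release cytokines and granzymes within hours, and they can divide in place. In Nur77GFP mice, GFP follows the gene Nr4a1 (Nur77), which is switched on by signalling through the T cell receptor (TCR), so a GFP-negative cell has had little recent TCR signal.

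RNA was read by CEL-seq2, a method that tags each sample with a barcode at reverse transcription and reads the ends of transcripts. Library totals of the 5 libraries ran from 3488476 to 7383264 reads in genes, with 11217 to 13120 genes detected. Levels below are CPM, the reads of a gene relative to its library's total, scaled between libraries by the TMM method. The correlation of log2 CPM was 0.915 between the code 5 libraries, 0.885 to 0.902 within day 0 acetone and 0.846 to 0.898 between the sets. The p-values measure the spread between libraries of the same set, shared over all 17 libraries of the first experiment and not taken from these 5 alone. Nothing says that the letters A, B and C are separate animals, so that spread may be technical.

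The sorted cells carried the RNA of the gate in both sets. Cd8a stood at 491 and 529 CPM in code 5 libraries A and B and at 539, 467 and 441 CPM in day 0 acetone libraries A, B and C. Itgae stood at 221 and 169.5 against 198, 204 and 130.4 CPM, and Cd69 at 321 and 337 against 355, 336 and 378 CPM. None of these passed the test, with log2 fold changes of 0.08 ± 0.12 (SE) for Cd8a, 0.14 ± 0.23 for Itgae and -0.11 ± 0.17 for Cd69. Cd4, the marker of helper T cells, had 0 reads in all 5 libraries, and Foxp3, of regulatory T cells, had 1 read in code 5 and 0 in day 0 acetone. Nr4a1 stood at 1472 and 1295 against 2050.4, 1431 and 1833 CPM, overlapping between the sets (log2 fold change -0.36 ± 0.17, adjusted p 0.534). The eGFP transcript was low, at 7.10 and 8.98 CPM in code 5 and 0.704, 1.403 and 4.49 CPM in day 0 acetone (log2 fold change 1.9 ± 0.90, adjusted p 0.53).

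Of 11588 genes tested, 104 changed between code 5 and day 0 acetone at an adjusted p under 0.05, which is 0.897% of the genes, by the quasi-likelihood F test of edgeR, with p-values adjusted by Benjamini-Hochberg over all of them. Of these, 32 were higher in code 5 (0.276%) and 72 were lower (0.621%). Over 2-fold were 16 of the higher and 67 of the lower genes. The higher genes held cell division, granzyme, actin and TCR-response genes, and the lower ones held keratins and other epidermal genes, transcripts of connective tissue, and the immediate early genes Fos and Fosb. All 104 had libraries that did not overlap between the sets, against 14.2% of all genes not overlapping in the higher direction and 13.3% in the lower. The median log2 fold change over all genes was -0.01. In bulk RNA, fewer cells of a type and less RNA per cell cannot be told apart. The count rests on few libraries: it was 49 without code 5 library A, 39 without code 5 library B and 68 without day 0 acetone library C.

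**Figure D1:**
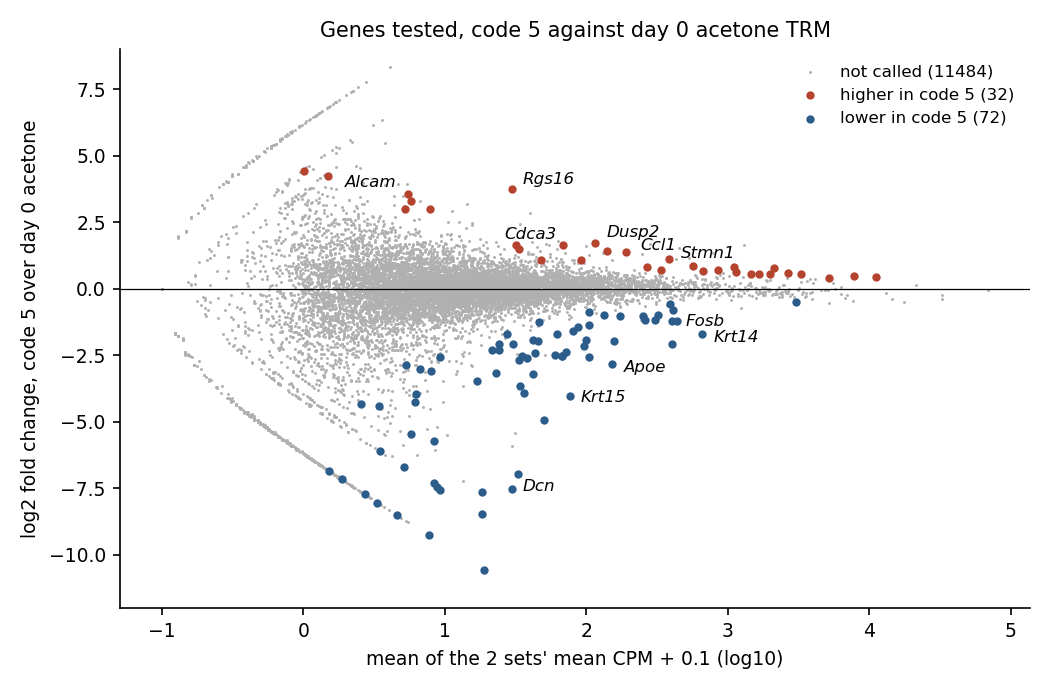
Log2 fold change of code 5 over day 0 acetone (vertical) for each of the 11588 genes tested, against the mean level of the 2 sets in CPM plus 0.1, given as log10 (horizontal). Red points are the 32 genes higher in code 5 and blue points the 72 lower, and the called genes reach low levels mainly on the lower side. Genes with no read in a set form the curved outer edges, where the plotted fold depends on the fit and is no measurement of size.

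Among the genes that rose, several encode feedback inhibitors and receptors that T cells switch on after stimulation. Rgs16, which shortens signals from G protein-coupled chemokine receptors, stood at 68.2 and 42.6 CPM in code 5 and at 4.58, 6.03 and 1.25 CPM in day 0 acetone. Both code 5 libraries lay far above all 3 controls (log2 fold change 3.74 ± 0.45, adjusted p 9.5e-05). Dusp2, a phosphatase that switches off MAP kinases, rose from 50.01, 56.2 and 55.4 to 210.1 and 146 CPM (log2 fold change 1.72 ± 0.20, adjusted p 7e-05). Tnfrsf9, the costimulatory receptor 4-1BB, rose from 61.1, 49.6 and 66.6 to 96.5 and 153 CPM (log2 fold change 1.08 ± 0.18, adjusted p 0.00285), with library B higher than A. Of the 35 tested genes of the TCR activation list, 2 rose (Dusp2 and Tnfrsf9) and 2 fell (Fos and Fosb), beside 0.276% and 0.621% of all genes. The list's median log2 fold change was 0 beside -0.01 over all genes. Egr2, Nr4a2 and Irf4, transcription factors of the same response, did not pass the test, with log2 fold changes of -0.63 ± 0.46, -0.25 ± 0.22 and 1.59 ± 0.58. Tnfrsf9 was not called without code 5 library B (adjusted p 0.266) or in the fit of the compared sets alone (0.0867), while Rgs16 and Dusp2 kept their call under every alternative run.

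Among chemokine genes, Ccl1 and Cxcl9 were called higher and Cxcl2 and Cxcl16 lower. The lower pair was picked after their values were seen. Chemokine ligands had no list of their own, and how many others were tested was not counted. These are single genes and not a result for the family. Ccl1, a chemokine made by activated T cells that attracts cells bearing CCR8, stood at 297 and 257 CPM in code 5 and 99.7, 104 and 119 CPM in day 0 acetone (log2 fold change 1.37 ± 0.13, adjusted p 8.6e-06). Its libraries were tightly grouped within each set. Cxcr4, the receptor for CXCL12, stood at 71.7 and 57.4 against 36.98, 29.3 and 25.2 CPM (log2 fold change 1.08 ± 0.21, adjusted p 0.0112). It was the only called gene of 18 tested chemokine receptors and related homing genes (median 0.04), beside 0.897% of all genes. Cxcl9, an interferon-induced chemokine, was called (log2 fold change 2.99 ± 0.57, adjusted p 0.0126), but code 5 library A had 3.67 CPM and library B 24.02 CPM, against 1.06, 1.82 and 2.24 CPM in day 0 acetone. Its adjusted p was 0.743 without code 5 library B and 0.0513 to 0.0775 without each of the day 0 acetone libraries. Cxcl2, which attracts neutrophils, stood at 0.979 and 1.56 against 11.1, 9.54 and 6.73 CPM (log2 fold change -2.88 ± 0.47, adjusted p 0.00196) and was at 0.0921 without code 5 library A and 0.107 in the fit of the compared sets alone. Cxcl16, the ligand of CXCR6, had 3 reads over code 5 and 81 over day 0 acetone, a ratio of 21.3 (95% counting interval 7.05 to 106, adjusted p 0.0305), and was not called without code 5 library A or B or day 0 acetone library A or B, at 0.0621 to 0.413. Cxcr4 was not called without code 5 library A (0.268) or without day 0 acetone library B (0.0609) or C (0.0714), nor in the fit of the compared sets alone (0.11).

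Of 20 tested effector and granule genes, 3 rose and none fell (median 0.04), beside 0.276% and 0.621% of all genes. Gzmb, the granzyme that triggers death of target cells, stood at 1466 and 1331 CPM in code 5 and 907, 848 and 975 CPM in day 0 acetone (log2 fold change 0.62 ± 0.12, adjusted p 0.0103). Gzmf, a granzyme of strongly stimulated mouse T cells, stood at 47.6 and 50.6 against 18.7, 14.2 and 19.5 CPM (log2 fold change 1.5 ± 0.25, adjusted p 0.00285). Id2, a transcriptional regulator needed by effector CD8 T cells, stood at 330.1 and 355 against 143, 228 and 209 CPM (log2 fold change 0.82 ± 0.17, adjusted p 0.0177). In all 3 genes the lowest code 5 library lay above the highest control, as in every called gene that rose and in 14.2% of all genes. Other effector genes gave no call: Ifng, encoding interferon gamma, had a log2 fold change of -0.11 ± 0.14, Prf1, encoding perforin, -0.27 ± 0.36, and Tnf 0.11 ± 0.26. Lilrb4, an inhibitory receptor, was the only called member of 18 tested inhibitory receptor genes, beside 0.897% of all genes. It had 37 reads over code 5 and 2 over day 0 acetone, a ratio of 23.4 with a 95% counting interval of 6.04 to 200.5. Its adjusted p was 0.01125. In the fit of the compared sets alone, Lilrb4 was at 0.378 and Id2 at 0.0987, so neither was called there. Pdcd1, encoding PD-1, stood at 88.3 and 74.99 against 42.4, 36.7 and 49.9 CPM and did not pass (adjusted p 0.13). Without single libraries Gzmb had adjusted p up to 0.212 (code 5 A), Id2 up to 0.266 (code 5 B) and Lilrb4 up to 0.134 (code 5 A), and Gzmf was at 0.0525 without code 5 B.

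**Figure D2:**
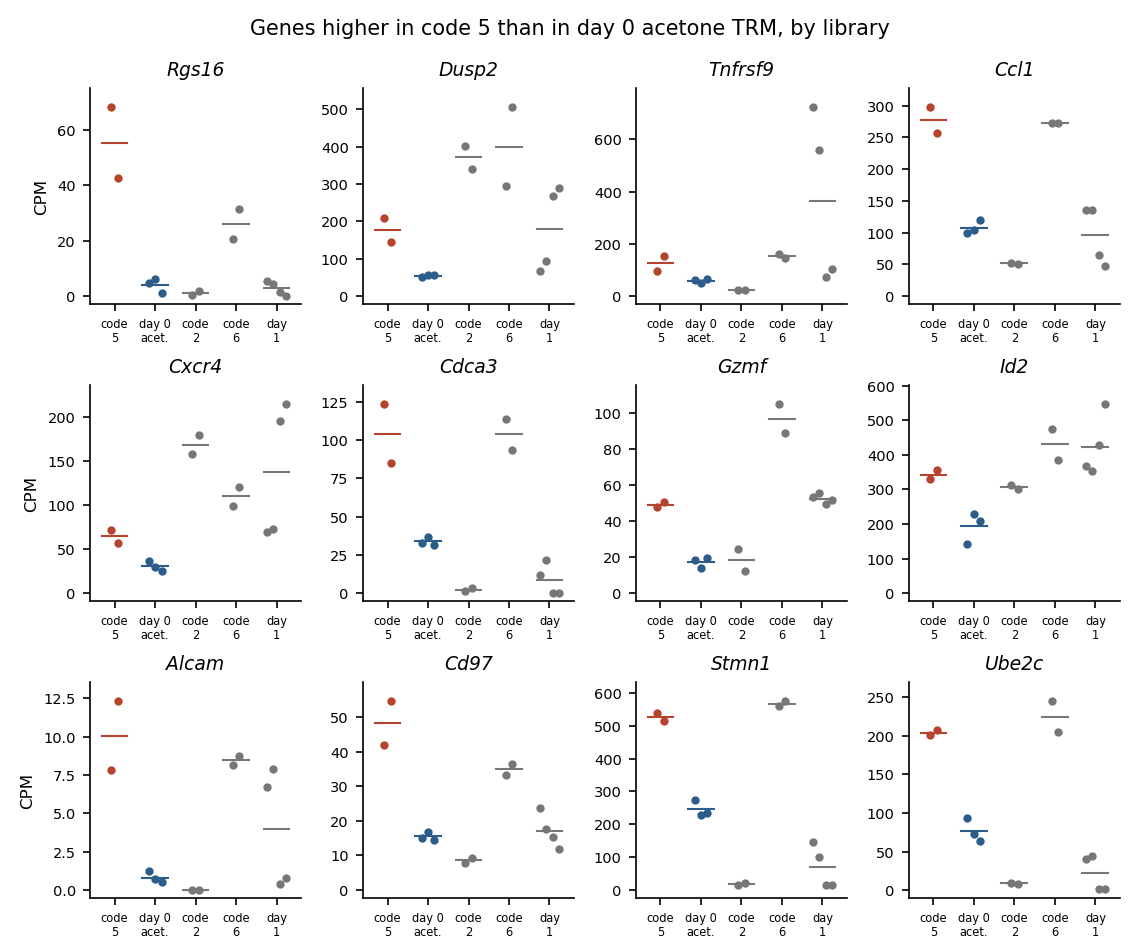
CPM of 12 genes higher in code 5 than in day 0 acetone, 1 panel per gene with its own axis from 0. Points are libraries and short lines are means; red is code 5 (2 libraries), blue is day 0 acetone (3), and grey shows codes 2 and 6 (2 each) and the GFP-negative day 1 sets (4). In each panel both red points lie above all blue ones, and Rgs16 is higher in code 5 than in any other set drawn.

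All 42 tested genes of the cell division list had log2 fold changes above 0, with a median of 1.06 beside -0.01 over all genes. Past the test, 5 of them rose and none fell, beside 0.276% and 0.621% of all genes. These genes build the spindle, copy DNA or drive the cell cycle, and their summed level was 7826 to 8092 CPM in the code 5 libraries and 4133 to 4914 CPM in day 0 acetone. Stmn1, which regulates microtubules, stood at 538 and 516 against 274, 227 and 234 CPM (log2 fold change 1.1 ± 0.17, adjusted p 0.00144). Tubb5, a beta tubulin, stood at 2689.6 and 2626 against 1690.1, 1524 and 1485 CPM (0.76 ± 0.15, adjusted p 0.011), and H2afz, a variant histone, at 1094 and 1009 against 676, 688 and 575 CPM (0.70 ± 0.14, adjusted p 0.0174). Ube2c, which helps the anaphase-promoting complex destroy cyclins, stood at 201 and 207 against 93.3, 72.8 and 64.1 CPM (log2 fold change 1.41 ± 0.29, adjusted p 0.0203). Cdca3, a trigger of entry into mitosis, stood at 123 and 84.8 against 32.8, 36.9 and 31.7 CPM (log2 fold change 1.62 ± 0.37, adjusted p 0.0406). Code 5 was higher without overlap in each of these 5 genes, as in every called gene that rose and in 14.2% of all genes. Standard markers of cycling cells had wider spread: Mki67 stood at 36.7 and 44.3 against 30.99, 20.9 and 13.7 CPM (log2 fold change 0.89 ± 0.54, adjusted p 0.685), Birc5 at 99.03 and 83.97 against 39.8, 42.4 and 14.2 CPM and Rrm2 at 339 and 371 against 214, 104 and 109 CPM. Day 0 acetone libraries also held these transcripts. The count of 5 was 1 without code 5 library A, code 5 library B or day 0 acetone library C, and 2 without day 0 acetone library B, while Stmn1 kept its call throughout.

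**Figure D3:**
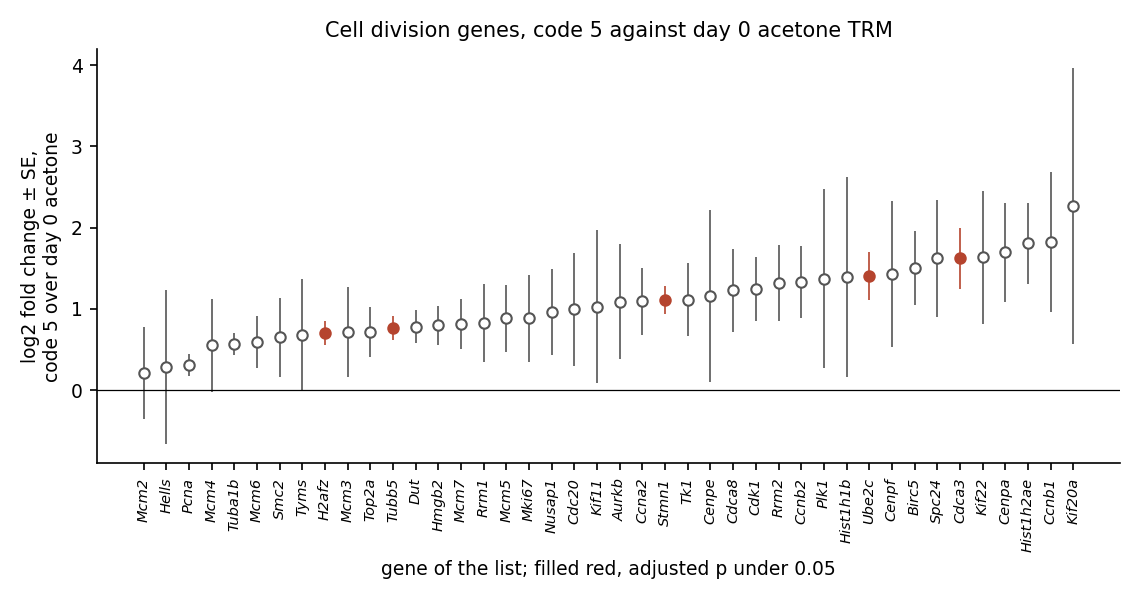
Log2 fold change ± SE of code 5 over day 0 acetone for the 42 tested genes of the cell division list, ordered by size. Filled red points are the 5 called genes, and every point lies above 0, from Mcm2 at 0.21 to Kif20a at 2.27.

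Promoters from the cell division list are shown because 5 called genes are in that list. Mitotic genes commonly carry CCAAT boxes, bound by NF-Y, and the cell cycle homology region TTTGAA. Those printed, Ube2c and Cdca3, are the scanned promoters with matches to both. The sequences run 5′ to 3′ from 250 bases before to 50 after the start site, from RefSeq (GRCm38.p6), with CCAAT and TTTGAA on either strand in capitals. Ube2c (chr2:164769679-164769978, plus strand) and Cdca3 (chr6:124829926-124830225, plus strand) read as follows.
Ube2c: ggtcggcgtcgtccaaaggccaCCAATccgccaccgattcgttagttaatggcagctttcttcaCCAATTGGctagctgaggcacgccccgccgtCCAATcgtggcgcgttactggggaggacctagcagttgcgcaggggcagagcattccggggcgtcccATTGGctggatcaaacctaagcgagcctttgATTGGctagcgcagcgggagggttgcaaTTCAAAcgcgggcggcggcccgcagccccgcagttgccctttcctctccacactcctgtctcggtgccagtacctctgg
Cdca3: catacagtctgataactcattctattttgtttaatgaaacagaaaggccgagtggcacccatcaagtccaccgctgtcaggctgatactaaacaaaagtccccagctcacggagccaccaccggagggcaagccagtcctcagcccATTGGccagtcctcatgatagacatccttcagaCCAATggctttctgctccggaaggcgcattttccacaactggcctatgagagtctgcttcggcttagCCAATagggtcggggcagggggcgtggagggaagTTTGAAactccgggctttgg
The Ube2c window held 6 matches to CCAAT, of which those at -186 and -183 overlap, and 1 to TTTGAA at -29 on the opposite strand. The Cdca3 window held 3 matches to CCAAT and 1 to TTTGAA at 31. Positions count from the start site as 1 and give the first base of the match. The Tubb5 window held 2 matches to CCAAT and none to TTTGAA. Stmn1 and H2afz were not scanned, because the promoter set used held no entry under these symbols. Over 32851 promoter windows of the same length, 37.4% held CCAAT and 17.9% held TTTGAA on either strand. A match is a description of the sequence and not a site shown to be used.

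Of 30 tested genes of the actin cytoskeleton, 28 had log2 fold changes above 0 (median 0.28) and 3 rose, beside 0.276% of all genes. These were Tmsb4x, which binds actin monomers, and Actg1 and Actb, the cytoplasmic actins. Actb stood at 13272 and 12541 CPM in code 5 and 9084, 9692 and 9713 CPM in day 0 acetone (log2 fold change 0.44 ± 0.10, adjusted p 0.0441). Tmsb4x stood at 9565 and 8478 against 6136, 6857 and 6585 CPM (0.47 ± 0.09, adjusted p 0.0164), and Actg1 at 6149 and 5788 against 4720.1, 4307 and 4473 CPM (0.41 ± 0.09, adjusted p 0.0302). Code 5 lay above day 0 acetone without overlap in all 3, as in every called gene that rose and in 14.2% of all genes. Without day 0 acetone library A, Actb was at an adjusted p of 0.119 and Tmsb4x at 0.0569. With the library letter as a block in the fit, Tmsb4x, Actg1 and Actb were at 0.0915, 0.143 and 0.151. The glycolytic enzyme Pgk1 rose from 280.0, 243 and 252 to 414 and 426 CPM (log2 fold change 0.70 ± 0.13, adjusted p 0.00958). It was the only call among 23 tested glycolysis genes (median 0.23), beside 0.897% of all genes. No actin gene was called without code 5 library A, code 5 library B or day 0 acetone library C, and 1 was called without day 0 acetone library B. Pgk1 was at 0.0986 without code 5 library A, 0.214 without code 5 library B, and 0.0631 and 0.0542 without day 0 acetone libraries B and C.

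Alcam, an adhesion molecule that binds CD6, was nearly undetected in day 0 acetone at 1.23, 0.701 and 0.499 CPM and stood at 7.83 and 12.3 CPM in code 5 (log2 fold change 3.56 ± 0.49, adjusted p 0.000419). Cd97, an adhesion G protein-coupled receptor, stood at 41.9 and 54.5 against 15.1, 16.8 and 14.5 CPM (log2 fold change 1.63 ± 0.34, adjusted p 0.0177). Alcam kept its call whichever library was left out but was at 0.065 in the fit of the compared sets alone. Cd97 lost its call whichever library was left out, with adjusted p of 0.0608 to 0.451. Of the remaining genes that rose, the following were picked after their values were seen. Ifitm1, an interferon-induced membrane protein, stood at 1475 and 1352 against 773, 759 and 900.1 CPM (log2 fold change 0.80 ± 0.13, adjusted p 0.0015), and it kept its call under every alternative. Lgals1, a lectin (galectin-1) of activated T cells, stood at 3326 and 3054 against 2208, 1989.8 and 2240.4 CPM (log2 fold change 0.57 ± 0.10). Cd52, a small surface glycoprotein of lymphocytes, stood at 4158 and 3636 against 2457, 2741 and 2864 CPM (log2 fold change 0.54 ± 0.11). Timp1, an inhibitor of matrix proteases, stood at 9.06 and 8.98 against 0.352, 0.2805 and 3.24 CPM (log2 fold change 3.0 ± 0.57). Lgals1 was at an adjusted p of 0.148 without code 5 library A. Cd52 was at 0.403 and 0.0908 without code 5 libraries A and B and at 0.0722 and 0.0766 without day 0 acetone libraries A and B. Timp1 was at 0.0595 and 0.0542 without code 5 libraries A and B, 0.0622 without day 0 acetone library B and 0.297 in the fit of the compared sets alone.

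The genes that fell included immediate early genes, which are transcribed within minutes of a stimulus. Fos stood at 214 and 213 CPM in code 5 and 443, 389 and 452 CPM in day 0 acetone (log2 fold change -1.0 ± 0.14, adjusted p 0.000541). Fosb stood at 235 and 253 against 619.5, 518 and 540.2 CPM (log2 fold change -1.2 ± 0.15, adjusted p 9.6e-05). Both encode partners of JUN in the transcription factor AP-1, and the code 5 libraries lay close together and below all controls. Klf4, a factor that restrains T cell cycling, stood at 96.95 and 82.8 against 156, 207 and 171 CPM (log2 fold change -0.99 ± 0.20, adjusted p 0.0177). Hspb1, a small heat shock protein that keratinocytes also make, fell from 148, 102 and 96.02 to 21.8 and 17.8 CPM (log2 fold change -2.54 ± 0.31, adjusted p 9.4e-05). These were the 4 called genes among 36 tested of the heat shock and dissociation list, beside 0.897% of all genes. Of the 36, 5 had a log2 fold change above 0 (median -0.24). Egr1 and Atf3, of the same kind, were lower without overlap but did not pass (adjusted p 0.0988 and 0.0636), and the chaperone Hspa1b overlapped between the sets at 1687 and 1539 against 2118, 1424 and 1854 CPM. Fos, Fosb and Hspb1 kept their call under every alternative, and Klf4 was at 0.106 without code 5 library A, 0.354 without code 5 library B and 0.0766 without day 0 acetone library B.

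The promoters of Fos and Fosb are shown because the pair fell together and because TGACG, the core of the cAMP response element bound by CREB, is a known input of Fos. Windows are as above, with TGACG on either strand and TATAAA in capitals. They lie at chr12:85473640-85473939 (Fos, plus strand) and chr7:19309996-19310295 (Fosb, minus strand).
Fos: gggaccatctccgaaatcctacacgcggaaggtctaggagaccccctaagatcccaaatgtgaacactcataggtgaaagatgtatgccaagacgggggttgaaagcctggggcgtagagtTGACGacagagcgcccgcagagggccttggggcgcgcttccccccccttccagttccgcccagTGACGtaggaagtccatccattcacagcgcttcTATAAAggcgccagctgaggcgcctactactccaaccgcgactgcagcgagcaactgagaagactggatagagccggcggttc
Fosb: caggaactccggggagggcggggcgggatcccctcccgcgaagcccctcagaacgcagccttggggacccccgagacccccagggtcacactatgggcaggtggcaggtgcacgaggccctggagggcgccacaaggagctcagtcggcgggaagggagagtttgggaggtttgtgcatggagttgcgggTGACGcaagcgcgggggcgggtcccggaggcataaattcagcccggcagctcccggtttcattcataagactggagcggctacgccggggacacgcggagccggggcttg
Fos held TGACG at -129 and -66 and TATAAA at -33. Fosb held TGACG at -60. Of all windows, 20.8% held TGACG and 13.6% held TATAAA on either strand. The full element TGACGTCA, found in 1.79% of windows, was in neither. Klf4 had 1 match to TGACG and Cebpb had 3.

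Of 33 tested glucocorticoid target genes, 1 rose (Cxcr4, above) and 2 fell (median -0.04), beside 0.276% and 0.621% of all genes. Mt2, a metallothionein that binds zinc, fell from 303, 333 and 377 to 177 and 152 CPM (log2 fold change -1.04 ± 0.17, adjusted p 0.00184). Its neighbour Mt1 overlapped between the sets, at 321 and 255 against 270.3, 237 and 332 CPM (log2 fold change 0.04 ± 0.17). Cebpb, a transcription factor of inflammatory responses, fell from 142, 123 and 140.2 to 77.7 and 67.96 CPM (log2 fold change -0.89 ± 0.20, adjusted p 0.0302). The classical targets did not pass. Tsc22d3 (GILZ) stood at 104 and 125 against 98.4, 70.96 and 109 CPM (log2 fold change 0.30 ± 0.21), Fkbp5 at 19.95 and 14.4 against 11.3, 12.3 and 14.96 CPM (0.43 ± 0.33) and Per1 at 42.4 and 34.8 against 49.1, 33.2 and 26.7 CPM (0.08 ± 0.28). All 3 overlapped between the sets. Mt2 was at 0.0691 without code 5 library B, and Cebpb at 0.151 and 0.413 without code 5 libraries A and B and 0.091 and 0.0861 without day 0 acetone libraries A and C.

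Keratinocyte genes made up the largest block of lower genes. Of 32 tested, 18 fell and none rose (median -1.40), beside 0.621% and 0.276% of all genes. The 33 list genes found in the table summed to 1471 to 1490 CPM in code 5 against 4403 to 4801 CPM in day 0 acetone. Krt15, a keratin of basal and hair follicle cells, stood at 7.34 and 10.2 against 137, 162 and 133 CPM (log2 fold change -4.05 ± 0.44, adjusted p 2.5e-05). Ly6d, a surface protein anchored by lipid, stood at 61.1 and 65.03 against 212, 291 and 245 CPM (log2 fold change -1.98 ± 0.18, adjusted p 3.4e-06). Perp, a desmosomal protein, and Dmkn (dermokine), which is secreted by upper layers, fell with log2 fold changes of -2.15 ± 0.23 and -1.92 ± 0.20. The paired keratins of basal cells, Krt14 and Krt5, named after their values were seen, stood at 316 and 309 against 1289.8, 983 and 763 CPM and 175 and 134 against 767, 570.0 and 614 CPM. Krt17, a keratin of follicles and of stressed epidermis, had 3 reads over code 5 and 184 over day 0 acetone, a ratio of 48.5 (95% counting interval 16.3 to 237). Krt10 and Krt2, keratins of upper layers that were also named after their values were seen, fell with log2 fold changes of -1.17 ± 0.21 and -1.22 ± 0.27. Krt10 was at an adjusted p of 0.124 and 0.0908 without code 5 libraries A and B. Krt2 was at 0.488 and 0.23 without code 5 libraries A and B and at 0.127 and 0.11 without day 0 acetone libraries B and C. Not every epidermal gene was lower: 6 of the 32, among them Krt6a, Krt6b, Lor and Sprr1b, had log2 fold changes above 0, and none of these was called. Leaving out code 5 library A or B gave 12 and 13 calls in this list.

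Most of these are textbook products of the epidermis, and the sort was for CD45+ leukocytes. The summed keratinocyte level differed between the sets beside every gene group described above, and its part in those results was not tested. With the list's genes taken out of the count table, 82 genes were called, and the number of higher genes was again 32. This count does not test that part. Every called gene of the list was lower, and taking out rows leaves any keratinocyte RNA counted under other genes in place. Levels of Cd3g, at 2526 and 2672 CPM in code 5 and 2522, 2495 and 2069 CPM in day 0 acetone, and of Thy1, at 4789.8 and 4252 against 4964, 4754 and 4298 CPM, did not pass the test (log2 fold changes 0.14 ± 0.13 and -0.05 ± 0.10).

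**Figure D4:**
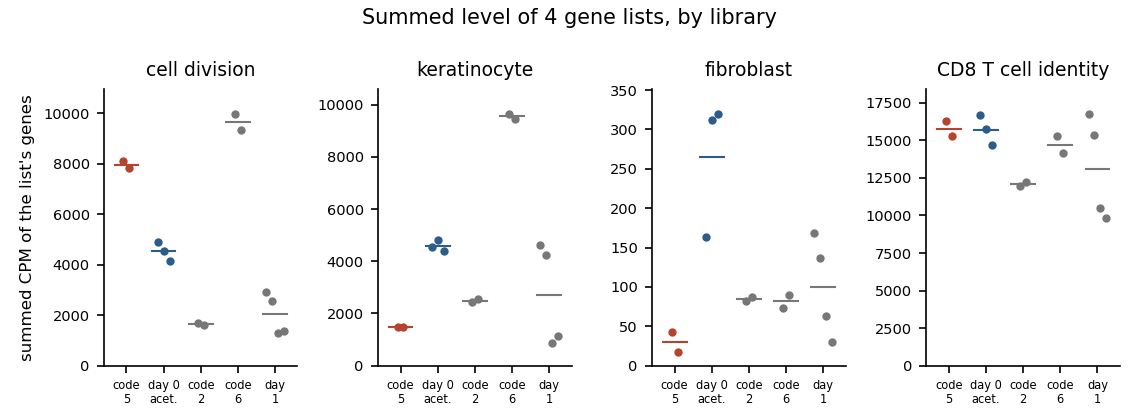
Summed CPM of the genes of 4 lists in each library, with axes from 0. Points are libraries and lines are means; code 5 (red, 2) is above day 0 acetone (blue, 3) for cell division, below it for keratinocyte and fibroblast genes, and overlaps it for CD8 T cell identity genes, and grey points are codes 2 and 6 (2 each) and the GFP-negative day 1 sets (4).

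Transcripts of connective tissue were lower in code 5 than in day 0 acetone. The 20 genes of the fibroblast list summed to 18.0 to 42.6 CPM in code 5 and 163 to 319 CPM in day 0 acetone. Of the 16 tested, 2 fell and none rose (median -4.06, or -3.57 with genes of no read at their bound), beside 0.621% and 0.276% of all genes. The list summed to 81.9 and 86.9 CPM in code 2 and 73.7 and 89.6 CPM in code 6. At day 1 it summed to 169 and 137 CPM in code 3 and 63.1 and 29.8 CPM in code 4. Against code 2, 2 of its genes were called lower in code 5, and against code 6 or the mean of the day 1 sets none was called. Dcn, the matrix proteoglycan decorin, stood at 0.367 and 0.195 against 10.2, 85.5 and 81.1 CPM (adjusted p 0.00902). Thbs1 (thrombospondin 1) stood at 4.16 and 4.69 against 77.5, 68.3 and 58.4 CPM (log2 fold change -3.94 ± 0.63, adjusted p 0.00184). Timp3, a matrix-bound protease inhibitor, had 0 reads in code 5 and 21.7, 46.1 and 46.1 CPM in day 0 acetone, at least 168-fold lower, and Ltbp4, which stores TGF-beta in the matrix, was at least 63.5-fold lower (floor of 3 reads over the set). Several of these transcripts were uneven within day 0 acetone. Myoc stood at 6.87, 79.7 and 109 CPM there and 0.122 and 0.976 CPM in code 5, Mgst1 at 2.99, 63.4 and 42.4 and 0 and 0.391 CPM, Cytl1 at 0.881, 55.8 and 52.6 and 0 and 0.195 CPM, and Scd1, a fatty acid desaturase abundant in sebaceous glands, at 19.7, 137 and 135 and 3.92 and 2.15 CPM. In each, day 0 acetone library A lay far below B and C. Aldh3a1, an aldehyde dehydrogenase of epithelia, did not share this: it had 26.8, 14.6 and 10.7 CPM in day 0 acetone and 1 read over code 5 (ratio 236, 95% counting interval 42.1 to 9363), and it kept its call under every alternative. Further genes with 1 read in code 5 were Akr1c18 (298 reads in day 0 acetone, ratio 235, interval 41.9 to 9332), Epgn (264 reads, ratio 209, interval 37.1 to 8271) and Krt79 (173 reads, ratio 137, interval 24.2 to 5430). Chad had 4 reads over code 5 and 280 over day 0 acetone. Of the genes named in this paragraph, all but Aldh3a1 and Chad lost the call without code 5 library A, at adjusted p from 0.0675 (Timp3) to 0.488 (Cytl1 and Epgn). Without code 5 library B all but Aldh3a1, Timp3 and Myoc lost it, from 0.0605 (Thbs1) to 0.631 (Scd1), and leaving out a day 0 acetone library ended it for Akr1c18, Cytl1, Epgn, Krt79, Ltbp4 and Scd1, at 0.0539 to 0.11. In the fit of the compared sets alone, Scd1, Mgst1, Myoc and Cytl1 were not called, at 0.118, 0.1385, 0.17 and 0.259. Of the 72 lower genes, 16 had 0 to 3 reads in code 5.

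**Figure D5:**
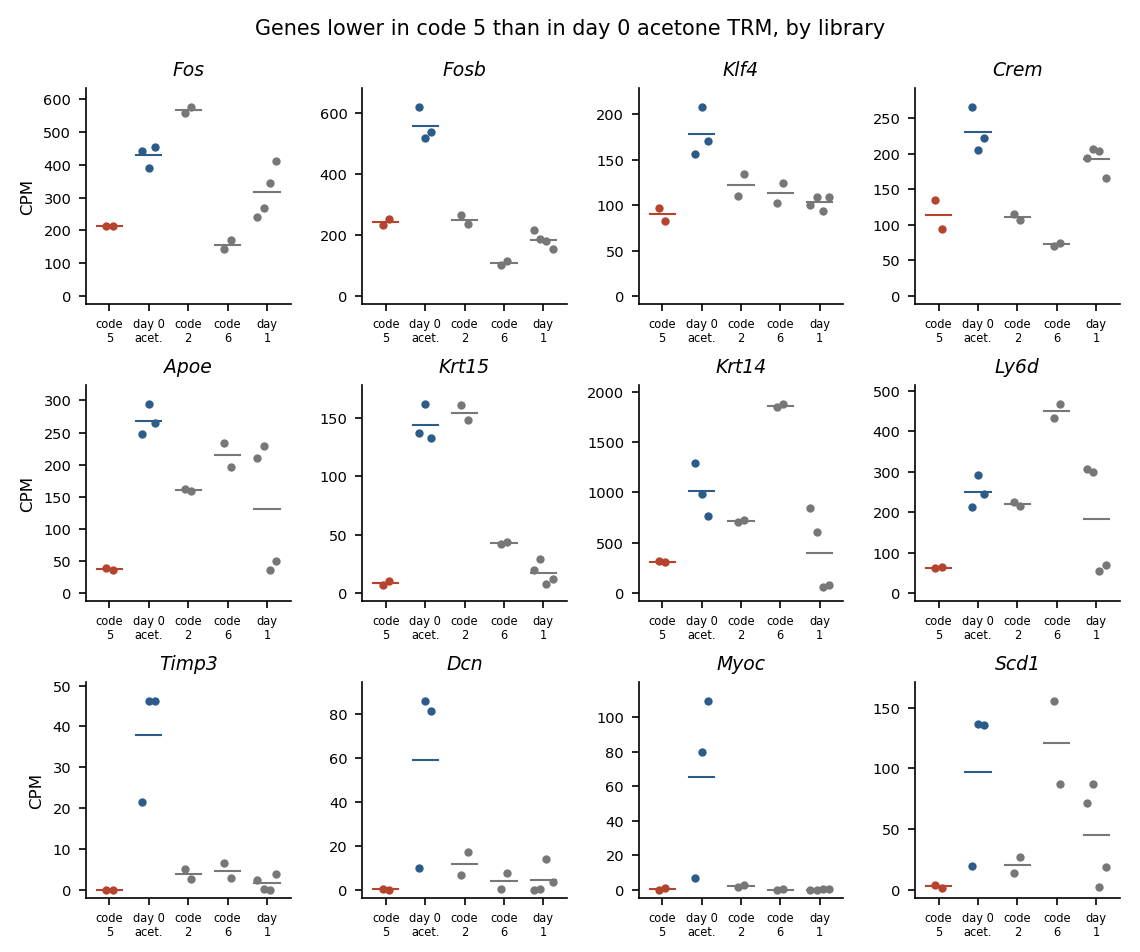
CPM of 12 genes lower in code 5 than in day 0 acetone, 1 panel per gene with its own axis from 0, with points and colours as in the plot of the higher genes. Fos, Fosb, Klf4, Crem, Apoe and Krt15 sit close together within day 0 acetone, and Krt14 is more spread, from 763 to 1289.8 CPM. For Dcn, Myoc and Scd1, by contrast, 1 blue point, library A, lies near the code 5 level.

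Of the 104 called genes, 60 were in no list, and those named here were picked after their values were seen. Apoe, a lipid carrier made by macrophages and epithelium among others, had the smallest adjusted p of all genes: it stood at 39.2 and 35.3 CPM in code 5 and 247, 294 and 265 CPM in day 0 acetone (log2 fold change -2.85 ± 0.21, adjusted p 3.9e-07). Genes known from epithelia fell as well: Anxa8 stood at 34.2 and 25.6 against 188, 190.0 and 162 CPM, Serpinb5 at 27.2 and 31.4 against 76.96, 107 and 102 CPM, and the tetraspanin Cd9 at 15.1 and 21.3 against 94.4, 96.6 and 118 CPM. Genes that T cells themselves express were among the lower ones too. Cd7, a surface protein of T and natural killer cells, stood at 48.6 and 32.2 against 93.2, 135 and 135 CPM (log2 fold change -1.58 ± 0.28, adjusted p 0.004). Crem, a cAMP-responsive transcription factor, stood at 135 and 93.7 against 265, 206 and 221 CPM (log2 fold change -1.01 ± 0.18, adjusted p 0.00581). Vps37b, of the endosomal sorting complex, stood at 302 and 291 against 583, 428 and 552 CPM (log2 fold change -0.81 ± 0.14, adjusted p 0.00398). Markers of other leukocytes did not move past the test: of 22 tested mononuclear phagocyte genes and 9 neutrophil genes none was called, beside 0.897% of all genes. Lyz2 had 1 read in code 5 and 0 in day 0 acetone, and H2-Ab1 stood at 62.8 and 58.6 against 60.9, 67.3 and 65.1 CPM. Cd207, of Langerhans cells, was lower without overlap at 2.57 and 3.71 against 8.28, 15.1 and 7.73 CPM and not called (adjusted p 0.597). Pmel, of melanocytes, was higher at 8.94 and 8.202 against 1.58, 0 and 0 CPM and not called (adjusted p 0.486). Without code 5 library B, Cd7 was at an adjusted p of 0.187 and Crem at 0.272, and Vps37b was at 0.0675 and 0.114 without code 5 libraries A and B.

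Several programmes of the TRM themselves gave no call, beside 0.897% of all genes called. None was found among 20 CD8 identity genes (median 0.10), 28 residency genes (-0.07), 17 tissue exit genes (0.25), 35 cytokine receptor and signalling genes (-0.04), 37 interferon response genes (0.22), 25 survival and death genes (0.23), 8 type 17 and type 2 genes (0.23), 64 nuclear genes of oxidative phosphorylation (0.12) or 15 genes of the mitochondrial genome (-0.34). Within these, Il13, a type 2 cytokine, was higher without overlap at 60.4 and 68.7 against 38.04, 31.7 and 36.2 CPM but did not pass (adjusted p 0.376), and Rgs2, a regulator of G protein signalling in the residency list, overlapped at 1398 and 1313 against 1351, 1339 and 1481 CPM. The tested interferon response genes do not include Ifitm1 and Cxcl9, the interferon-induced genes called higher above. The share of reads in mitochondrial genes was 24.4% to 24.5% in code 5 and 24.9% to 31.5% in day 0 acetone, with library B the highest. Of 59 ribosomal protein genes 1 fell, beside 0.621% of all genes. This was Rpl5, from 3329, 3854 and 3585 to 2507 and 2560.5 CPM (log2 fold change -0.50 ± 0.12, adjusted p 0.0439). The median of the 59 genes was -0.13, 8 of 59 were above 0, and the 60 list genes in the table summed to 97268 to 105590 CPM against 109280 to 120960 CPM. Rpl5 lost its call whichever library was left out, with adjusted p of 0.0533 to 0.325. A gene that misses the threshold with 2 libraries against 3 is not shown to be equal.

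The same code 5 libraries were set against the other GFP-negative sets of the experiment, so the comparisons below share those libraries. Against code 2, 662 genes were called (5.71%), 395 higher (3.41%) and 267 lower (2.3%). Against code 6, 230 were called (1.98%), 58 higher (0.501%) and 172 lower (1.48%). Against the mean of the day 1 sets, 780 were called (6.73%), 420 higher (3.62%) and 360 lower (3.11%). Cell division genes numbered 30 of 42 higher and none lower against code 2, 36 higher and none lower against day 1, and none in either direction against code 6, where the list's median was -0.19. Their sums were 1629 and 1682 CPM in code 2 and 9354 and 9966 CPM in code 6. Keratinocyte genes gave 25 of 32 lower against code 6, 13 lower and 2 higher against code 2 and 10 lower against day 1. The summed keratinocyte level was 2447 and 2544 CPM in code 2 and 9469 and 9637 CPM in code 6, so code 5 had the lowest of codes 1, 2, 5 and 6. Within day 1, the code 3 libraries had 4228 and 4625 CPM and the code 4 libraries 881 and 1140 CPM of the list. Of the glucocorticoid targets, 2 were higher and 12 lower against code 2, 6 higher and 2 lower against code 6, and 1 higher and 8 lower against day 1. Fkbp5 and Tsc22d3 were both lower than in code 2 (adjusted p 0.00127 and 0.000152) and gave no call against code 6 (0.928 and 0.381). Ribosomal protein genes were lower in 34 of 59 against code 2, in 26 against code 6 and in 11 against day 1, with none higher.

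Single genes placed code 5 differently from set to set. Rgs16 stood at 0.394 and 1.71 CPM in code 2, 20.7 and 31.6 in code 6 and 5.55, 4.32, 1.65 and 0 in the 4 day 1 libraries, below both code 5 libraries in each, with adjusted p of 2.4e-05, 0.334 and 3.1e-06. Only the difference from code 6 did not pass. Dusp2 was higher in code 2 (402 and 341 CPM) and code 6 (295 and 506 CPM) than in code 5 (adjusted p 0.00563 and 0.00748). Ccl1 stood at 273 and 272 CPM in code 6, inside the code 5 range, and at 52.7 and 50.3 CPM in code 2 (adjusted p 0.992 and 4e-09). Fosb stood at 266 and 236 CPM in code 2, not called against code 5 (0.948), and at 103 and 115 CPM in code 6, lower than code 5 (0.000271), which leaves day 0 acetone with the highest Fosb of the GFP-negative sets. Myoc stood at 1.57 and 2.74 CPM in code 2, 0.136 and 0.392 CPM in code 6 and 0, 0.149, 0.825 and 0.397 CPM at day 1, below all 3 day 0 acetone libraries.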

How the data were processed

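The sort, library and sequencing steps are per the labels' protocols. The tools named in the submitters' processing notes are bcl2fastq 2.2, BWA 0.7.15 and HTSeq, with the genome build GRCm38. The deposited table holds counts of reads per gene and library, not normalized, per the file headers and values. Collapsing by molecular barcode and use of strand are not given in the sources used here, so antisense and overlapping genes, near-identical gene copies and paralogs (the beta and gamma actins, granzymes, keratins and histones among them) may share reads. The header gives a code for each set. Code 1 was read as day 0 acetone because only that labelled set has 3 letters.

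All 17 libraries of the first experiment were fitted together, with 1 mean per set (8 sets, 9 residual degrees of freedom), in R 4.3.3 with edgeR 4.0.16: genes kept by filterByExpr (11588 of 18054 rows), TMM scaling, robust quasi-likelihood F test and Benjamini-Hochberg adjustment over all genes tested. The SE is the size of the log2 fold change over the square root of F. Spike-in rows were left out of totals and tests. Lists are described by counts and medians, and members and lists were chosen with earlier results of these data known. Genes named by rule are the fixed markers, the 12 largest called changes on each side (mean of 10 CPM or more where higher, no predicted genes), and up to 4 called members of each list. For a list with no call, its members of highest level could be named. Other genes in the text fall outside this rule and are examples picked by hand, with their values known. With no read in a set, the lowest fold takes 3 reads over that set. Intervals and floors cover counting error only. The script was checked on simulated data. Alternatives were other scaling, no filter, DESeq2 1.42.0, only the compared libraries, a replicate block, tables without mitochondrial or keratinocyte genes, and each library left out. Promoter windows are from RefSeq (GRCm38.p6). The second experiment was not used here.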

Additional observations from a re-analysis of the deposited data

How the results depend on the processing

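For code 5 against day 0 acetone, scaling by median of ratios gave 100 genes, the fit without mitochondrial genes 103, the fit of these sets alone 112 (75 of them among the 104) and the table without keratinocyte genes 82. Without a low-count filter 297 genes were called (106 higher, 191 lower), and DESeq2's Wald test called 267 (76 higher, 191 lower), of which 104 were the genes called by edgeR. Deviations from the set means correlated at -0.002 between the A libraries and 0.052 between the B libraries. The code 5 libraries deviate from their mean as mirror images, so these are not separate checks. Whether the letters pair the libraries is therefore not shown. With a replicate block 67 genes were called, 18 of them higher. Leaving out each of the 5 libraries gave 39 to 90 genes, 10 to 27 higher and 29 to 63 lower, and a set left with 1 library is assumed to vary like the others. Against code 2, DESeq2 called 1006 genes and leaving out a library gave 347 to 468. Against code 6, 389 genes were called without the filter, 504 by DESeq2 and 64 to 112 with a library left out. Against day 1, the fit of those sets alone called 510 and leaving out a library gave 246 to 716. The causes of these moves were not tested beyond the smaller number of libraries or the larger number of genes that an alternative holds. Over the 12 alternatives 26 of the 104 genes (5 higher, 21 lower) kept the call wherever they were tested. No gene named by rule among the 104 changed sign. Of the values of genes named by rule, 865 counted as unchanged, 132 lost the call and 1 gained it. A change of sign in such a gene outside the 104 was counted as unchanged. Calls among cell division genes ran from 1 to 11 and among actin genes from 0 to 5, keratinocyte calls from 12 to 20, and heat shock and dissociation calls from 3 to 8. Of the 104 called genes, 12 had a mean under 10 CPM in the set where they were higher.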
